A study of Mus musculus with 6 samples.

Results

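The Notch pathway genes described here are 10 mouse genes: the receptors Notch1, Notch2, Notch3 and Notch4, the ligands Jag1, Jag2 and Dll1, the DNA-binding effector Rbpj, and the targets Hes1 and Hey1. Every probe annotated to one of these symbols was taken, which gave 14 of the 45281 probes and 10 of the 19057 genes with a probe on the array. The study set spermatogonial stem cells (SSC, strain C57BL/6) against embryonic stem cells (ESC, line R1/E), with 3 samples of each and 1 bead array per sample. No genetic change or treatment is named for either group, and the sources used here state neither how the SSC were isolated nor how either cell type was cultured. The samples of a group carry replicate numbers, and nothing says that they came from separate cultures or animals, so every p-value below reflects only how far these samples scatter, and that scatter may be technical. R1/E is 1 established line and therefore stands for a single genetic background, which differs from that of the SSC, so cell type and strain cannot be told apart.

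Notch receptors are single-pass membrane proteins that are switched on by ligands of the Jagged and Delta families on a neighbouring cell. Ligand binding exposes the receptor to cleavage by ADAM proteases and then by gamma-secretase, and the freed intracellular domain enters the nucleus, binds RBPJ and activates genes such as the Hes and Hey repressors. In the mouse testis, Sertoli cells, the somatic nurse cells of the seminiferous tubule, are known to receive Notch signals from germ cells carrying Jagged, and HES1 and HEY1 are known to repress the niche factor gene Gdnf there. In mouse embryonic stem cells Notch signalling is known for promoting neural commitment and is not needed for self-renewal.

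Levels of several Notch receptor, ligand and target transcripts differed between SSC and ESC. Notch1, Jag2 and Hey1 were higher in SSC, Notch3, Notch4 and Dll1 were lower, and Hes1 was not called. Notch2, Jag1 and Rbpj stayed too close to background in both groups to be measured. A probe counted as measured when its detection p, the chance that a negative control bead is as bright, fell below 0.01 for 3 or more of the 6 arrays, and 7 of the 10 genes had such a probe. Of these 7, 6 differed at an adjusted p under 0.05 in limma, against 74.4% of all 10024 genes measured, so a share of this size is not particular to Notch genes. The values of the groups did not overlap for 6 of the 7, against 76.9% of all genes measured. The fitted difference was called and at least 2-fold for 4 of the 7 (Hey1 higher, Notch3, Notch4 and Dll1 lower), against 33.2% of all genes measured, 17.5% higher and 15.8% lower. Dll1 passed the detection filter through its ESC arrays alone and so had to differ, and the other 6 were detected on all 6 arrays.

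The plot of the 14 probe intensities shows each array before any normalization.

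**Figure D1:**
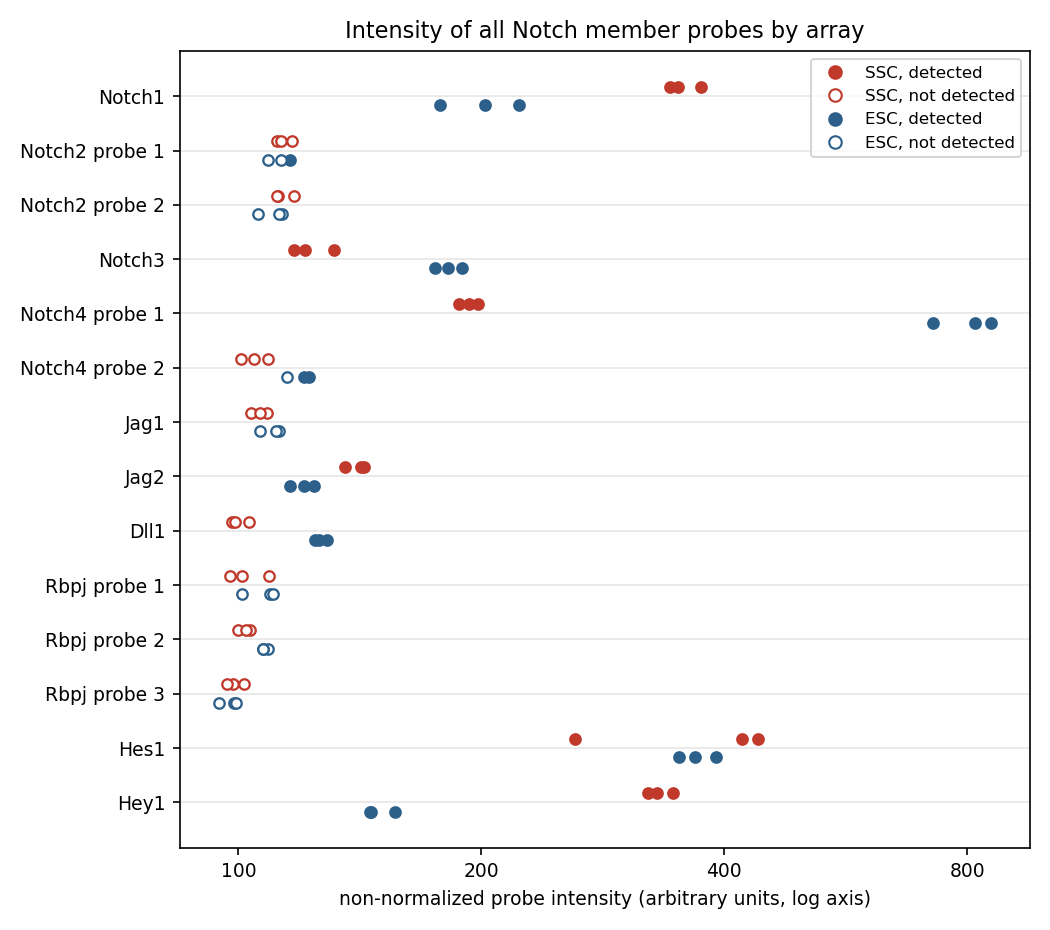
Non-normalized intensity (arbitrary units, log axis) of the 14 probes of the 10 Notch genes, 3 SSC arrays (red, upper row of each probe) and 3 ESC arrays (blue, lower row), filled where the detection p was under 0.01. Notch4 probe 1 lies at 188 to 198 in SSC and 726 to 856 in ESC, while all Rbpj points are open and near 100.

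The starts of the 3 receptor genes that were measured are shown because these receptors moved in opposite directions. Each line gives the 250 bases before the annotated transcription start from RefSeq, 5′ to 3′ on the gene's own strand, with CG dinucleotides in capitals. The windows lie on build GRCm38.p6, at chr2:26503823-26504072 on the minus strand for Notch1, chr17:32166891-32167140 on the minus strand for Notch3 and chr17:34564045-34564294 on the plus strand for Notch4.
Notch1: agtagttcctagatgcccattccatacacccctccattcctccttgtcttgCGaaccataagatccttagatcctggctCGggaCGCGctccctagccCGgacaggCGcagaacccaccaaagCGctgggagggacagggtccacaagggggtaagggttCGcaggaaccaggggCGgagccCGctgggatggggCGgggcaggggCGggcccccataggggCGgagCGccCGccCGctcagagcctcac
Notch3: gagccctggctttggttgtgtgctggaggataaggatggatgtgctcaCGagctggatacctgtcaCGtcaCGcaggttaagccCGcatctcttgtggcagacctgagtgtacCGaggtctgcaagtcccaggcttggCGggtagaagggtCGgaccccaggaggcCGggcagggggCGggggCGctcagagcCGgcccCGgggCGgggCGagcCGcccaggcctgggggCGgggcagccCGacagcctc
Notch4: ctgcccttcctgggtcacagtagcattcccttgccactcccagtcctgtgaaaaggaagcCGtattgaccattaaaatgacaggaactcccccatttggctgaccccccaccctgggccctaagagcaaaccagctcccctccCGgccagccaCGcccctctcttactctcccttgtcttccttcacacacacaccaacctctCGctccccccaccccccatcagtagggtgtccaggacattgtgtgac
The Notch4 window holds 4 CG dinucleotides, against 16 in Notch1 and 17 in Notch3, and the median of all 32851 windows in the table is 6. Whether the CG count bears on the direction of change was not tested.

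RBPJ is known to bind the core TGGGAA, which was searched on both strands (TTCCCA on the other) together with the longer GTGGGAA, which contains it. Windows were given for 8 of the 10 genes, in 10 windows. The targets Hes1 and Hey1 had no window and were not searched. Of the genes searched, only Rbpj held the core, in both of its 2 windows. None of the 10 windows held the longer form. Of all windows, 21.6% held the core and 5.4% the longer form. Among the other pathway genes listed below, 20 of the 66 with a window held the core. This count is per gene and cannot be set against the shares per window. The longer form was held by 7 of them, namely Hes5, Hes7, Hey2, Lfng, Psen2, Rbpjl and Spen. Of these, Psen2 (−0.27, not called) and Spen, given below, were measured on the arrays and the others were not.

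Among the receptors, Notch1 was higher in SSC and both Notch3 and Notch4 were lower. Notch1, the receptor most widely used across tissues, had intensities of 343, 374 and 350 in SSC, against 202, 223 and 178 in ESC. All SSC arrays lay above all ESC arrays. After background correction and quantile normalization Notch1 averaged 7.94 ± 0.026 in SSC and 7.02 ± 0.25 in ESC on the log2 scale (SD, n = 3 each), a difference of 0.92 ± 0.14 (SE), or 1.89-fold (limma adjusted p = 4.47e-05). Without background correction the difference was 0.58, more than 1.5 times smaller, and it was still called.

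Notch4, a receptor best known from blood vessel endothelium, showed the largest difference of the 7 genes. Its brighter probe read 193, 198 and 188 in SSC, against 856, 817 and 726 in ESC. The groups were far apart, and the arrays of each group lay close together. Normalized values averaged 6.55 ± 0.047 in SSC and 9.52 ± 0.081 in ESC (SD, n = 3 each), so that Notch4 was 7.82-fold lower in SSC, with a log2 difference of −2.97 ± 0.11 (SE, limma adjusted p = 1.18e-10). The second Notch4 probe was dim, at 101, 109 and 104 in SSC and 121, 122 and 115 in ESC. It was detected on 0 of 3 SSC arrays and 2 of 3 ESC arrays, which leaves a bound of at least 1.29-fold lower in SSC, in the same direction as the brighter probe. For such a bound, each array of the dimmer group was given its lowest detected signal wherever the probe itself was dimmer than that.

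Notch3, known from vascular smooth muscle and pericytes, read 117, 131 and 121 in SSC, against 175, 182 and 189 in ESC. It was detected on all 6 arrays, and the SSC values lie just above the background of the array. Its mean was 5.06 ± 0.18 in SSC and 6.78 ± 0.14 in ESC (SD, n = 3 each), a log2 difference of −1.72 ± 0.13 (SE, limma adjusted p = 9.53e-08), or 3.30-fold lower in SSC. The difference was −0.64 without background correction, still called, so the size of this change depends on how the background is treated while its direction held in each of the settings tried.

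Notch2, a receptor with broad expression, had 2 probes and neither could be measured. The first read 112, 117 and 113 in SSC and 116, 109 and 113 in ESC, with 1 ESC array detected. The second read 112, 117 and 112 in SSC and 106, 113 and 112 in ESC, with no array detected. The groups overlapped on both probes, and without a detection filter the fitted difference of the first probe was −0.07 (limma adjusted p = 0.806). These arrays give no measurement of Notch2 in either cell type beyond its being near background.

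The unequal change of the receptors was also read within arrays. The mean log2 ratio of Notch1 to Notch4 was higher by 3.89 in SSC than in ESC, and that of Notch1 to Notch3 by 2.64. Neither ratio overlapped between the groups. This had to be so, because the genes of each pair already differed without overlap in opposite directions. The ratios restate the differences above and add no support. A two-sided exact permutation test gave p = 0.1 for each (adjusted p = 0.1 over 4 pairs, which were chosen after the values were seen), which is the smallest p that 3 against 3 samples allow. The other pairs were Hey1 with Hes1, given below, and Jag2 with Dll1, for which no value is given because Dll1 was not detected in SSC.

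**Figure D2:**
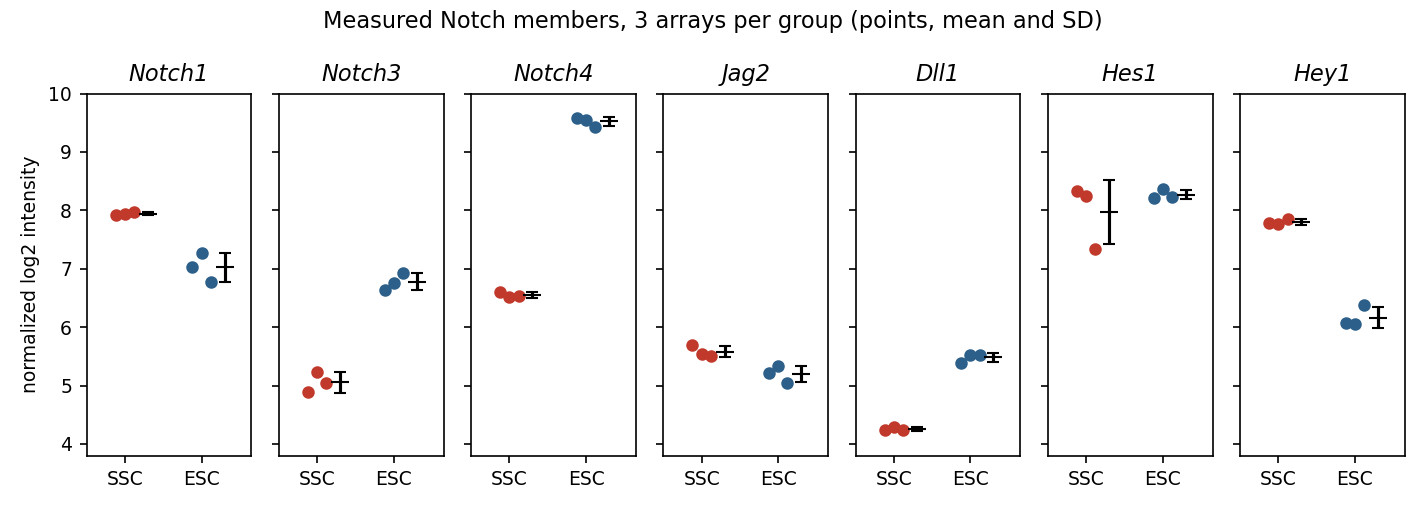
Normalized log2 intensity of the 7 measured Notch genes, with the 3 SSC arrays (red, left) and 3 ESC arrays (blue, right) as points and the mean with its SD as a black bar. Notch1, Jag2 and Hey1 lie higher in SSC, Notch3, Notch4 and Dll1 lie lower, and Hes1 overlaps, with 2 SSC arrays within the ESC range and the remaining one at 7.34.

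Of the ligands, Dll1 was lower in SSC and Jag2 was slightly higher. Dll1, a Delta ligand of somite and neural patterning, read 98.1, 103 and 99.0 in SSC, where no array detected it, against 125, 129 and 126 in ESC, where all 3 did. Dll1 was at least 1.60-fold lower in SSC. Fitted means were 4.26 ± 0.033 in SSC and 5.48 ± 0.077 in ESC (SD, n = 3 each), a log2 difference of −1.22 ± 0.11 (SE, limma adjusted p = 5.66e-07) that includes SSC values below detection. Without background correction the difference was −0.34, and Dll1 was still called.

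Jag2, a Jagged ligand, read 143, 142 and 135 in SSC, against 120, 124 and 116 in ESC. The SSC arrays lay above the ESC arrays by a small margin. Its mean was 5.58 ± 0.099 in SSC and 5.20 ± 0.14 in ESC (SD, n = 3 each), a log2 difference of 0.38 ± 0.12 (SE, limma adjusted p = 0.0129), or 1.31-fold. This is the least secure of the 6 calls. It was lost without background correction (0.11, adjusted p = 0.0700) and from the authors' processed table, which also keeps the background (0.11, adjusted p = 0.0698). It was also lost without SSC replicate 1 (0.33, adjusted p = 0.0515) and without ESC replicate 3 (0.31, adjusted p = 0.0567), and under scaling on array medians the difference was 0.67 (adjusted p = 1.91e-04).

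Jag1, the Jagged ligand that spermatogonia are known to present to Sertoli cells, was not detected on any array. Its probe read 104, 108 and 106 in SSC and 112, 106 and 111 in ESC, and the groups overlapped.

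Rbpj, the DNA-binding protein through which all 4 receptors act, was represented by 3 probes and detected by none of them on any array. The 3 probes read 96.9 to 109 in SSC and 94.5 to 110 in ESC. The groups overlapped on 2 of them, and on the remaining probe the SSC values of 99.8 to 103 lay below the ESC values of 107 to 109. Without a detection filter the fitted probe gave a difference of −0.14 (limma adjusted p = 0.435). A probe near background bounds its signal only, and these values do not show that either cell type lacks the transcript.

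The targets split. Hey1, a basic helix-loop-helix repressor induced by Notch, read 322, 345 and 330 in SSC, against 146, 146 and 156 in ESC. Every SSC array exceeded every ESC array by a wide margin. Hey1 averaged 7.80 ± 0.047 in SSC and 6.16 ± 0.18 in ESC (SD, n = 3 each), a log2 difference of 1.64 ± 0.13 (SE, limma adjusted p = 9.34e-08), or 3.11-fold. Without background correction it was 0.90, still called.

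Hes1, the other repressor, read 421, 440 and 261 in SSC, against 368, 391 and 351 in ESC. SSC replicates 1 and 2 lay above all ESC arrays and SSC replicate 3 lay below all of them. The normalized values were 8.32, 8.25 and 7.34 in SSC and 8.22, 8.36 and 8.22 in ESC, and the groups overlapped. Means were 7.97 ± 0.55 in SSC and 8.27 ± 0.080 in ESC (SD, n = 3 each). The difference of −0.30 ± 0.21 (SE) was not called (limma adjusted p = 0.222), and its 95% confidence interval ran from −0.76 to 0.16. Without SSC replicate 3 the difference was 0.021 (adjusted p = 0.890), so its sign rests on that array. Hey1 on the same SSC replicate 3 stood at 7.85, beside 7.79 and 7.76 on the other SSC arrays. The mean within-array log2 ratio of Hey1 to Hes1 was higher by 1.93 in SSC than in ESC without overlap (exact permutation p = 0.1, adjusted p = 0.1). This pair was also chosen after its values were seen and adds no support.

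The authors' processed table, another normalization of the same arrays on a linear scale, gave the same directions. Like the setting without background correction it keeps the background, so it adds no separate check to that setting. Its mean intensity for Notch1 was 333 in SSC and 218 in ESC, a ratio of 1.53. For Notch4 it was 181 in SSC and 822 in ESC (ratio 0.220), and for Notch3 it was 120 in SSC and 197 in ESC (0.610). For Hey1 it was 310 in SSC and 159 in ESC (1.95), and for Hes1 it was 349 in SSC and 395 in ESC (0.883). The ratio was 1.09 for Jag2 and 0.765 for Dll1. The ratios of the probes of Notch2, Jag1 and Rbpj and of the dim Notch4 probe lay between 0.855 and 1.02. These ratios are of values with the background still in them and are nearer to 1 than the folds above.

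Other components of the pathway were taken from a list of 83 genes, arranged by role and excluding the 10 genes above. Of these, 76 had a probe and 56 were measured, of which 27 were higher in SSC, 14 were lower and 15 were not called. The called share was 73.2%, against 74.4% of all genes measured, of which 37.9% were higher and 36.5% lower. The median difference of the 56 was 0.30, against 0.00364 for all genes measured. The list as a whole was called at nearly the rate of the whole array. A gene given below with a bound was detected in 1 group only and so passed the filter through that group and had to differ. Its adjusted p is the one the fit gave and adds no support.

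**Figure D3:**
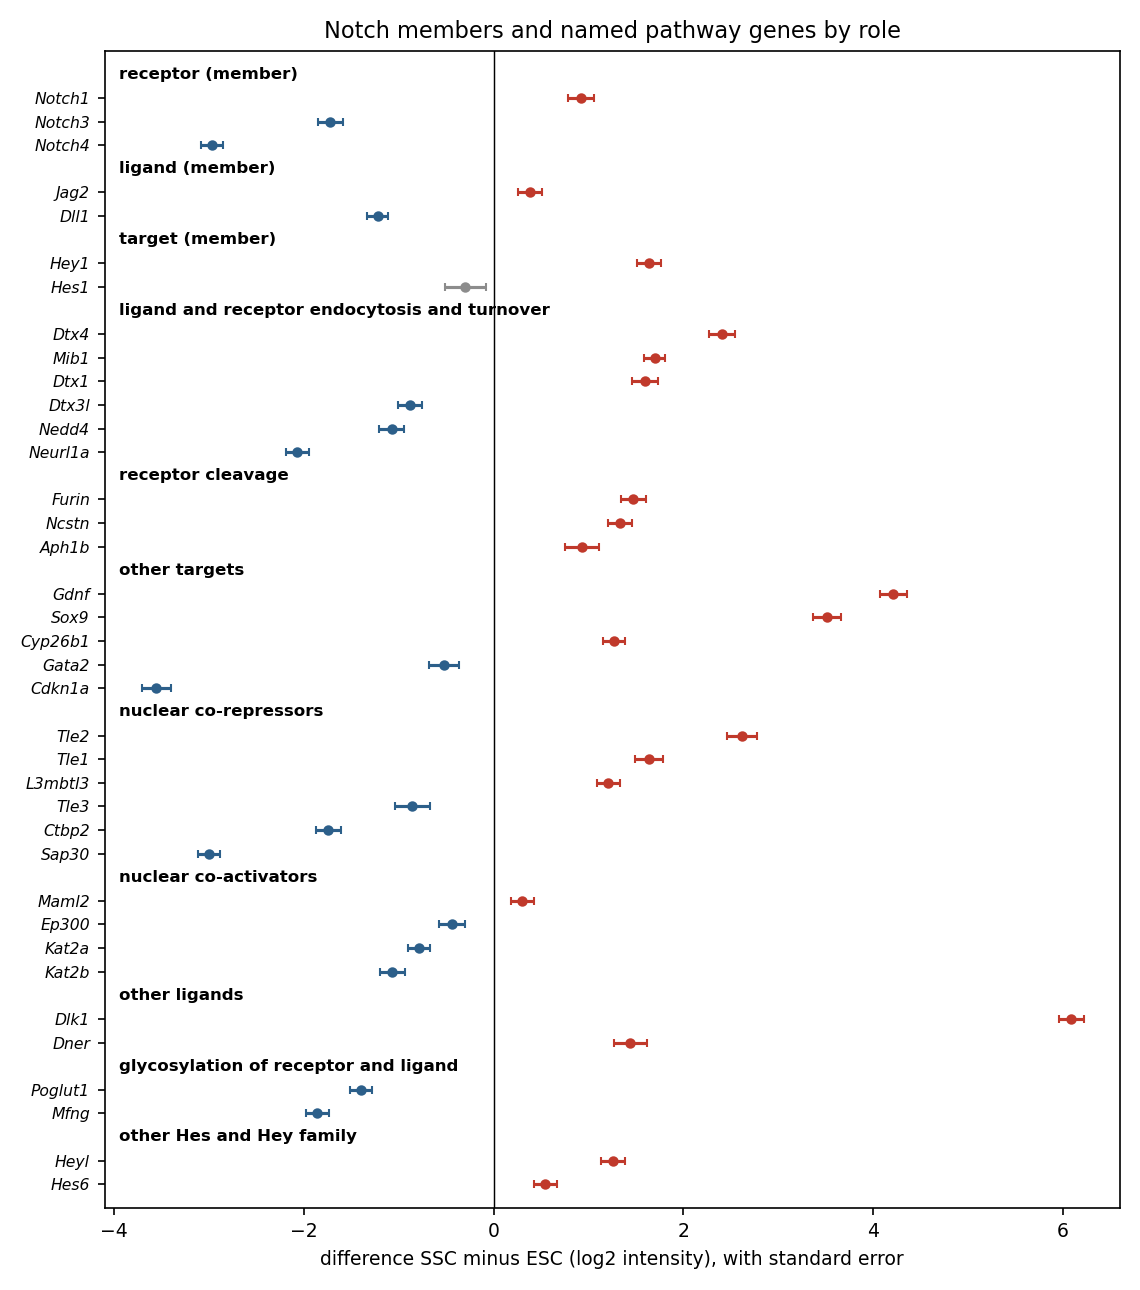
Log2 difference SSC minus ESC with its standard error for the 7 measured Notch genes and 30 named pathway genes, grouped by role (red, higher in SSC; blue, lower in SSC; grey, not called). Dlk1 lies farthest to the right at 6.09 and Cdkn1a farthest to the left at −3.55.

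Both other ligands measured were higher in SSC. Dlk1, a Delta-like protein without the domain that activates receptors and an imprinted gene, read 5828, 4836 and 4079 in SSC and 157, 161 and 158 in ESC. Its log2 difference was 6.09 ± 0.13 (SE, limma adjusted p = 9.98e-13), and its other probe gave 4.96. Dner, an unconventional Notch ligand of neurons and glia, was higher by 1.44 ± 0.18 (limma adjusted p = 7.83e-06). Dll3, Dll4 and the contactin gene Cntn1 were not measured.

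The sugar-transferring enzymes that tune which ligands a receptor answers were lower or not called. Of 4 measured, 2 were lower, and 0 were higher. Mfng, a fringe that extends O-fucose on Notch, had a difference of −1.86 ± 0.12 and was detected on 1 of 3 SSC arrays and 3 of 3 ESC arrays. Poglut1, which adds O-glucose to the receptor, had a difference of −1.40 ± 0.12. The adjusted p in limma was 1.99e-08 for Mfng and 2.92e-07 for Poglut1. Lfng was not measured.

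Receptor cleavage genes were higher or not called, with 4 of 7 measured higher and 0 lower. Furin, the convertase that matures the receptor, was higher by 1.47 ± 0.13 on its brightest probe, while its other kept probe gave 0.06 and the mean of both 0.77. Ncstn, the nicastrin subunit of gamma-secretase, was higher by 1.33 ± 0.13 (0.81 on its other probe). Aph1b, another subunit, was higher by 0.93 ± 0.18 and was detected on 3 of 3 SSC arrays and 2 of 3 ESC arrays. Aph1b has a close paralogue, Aph1c, and this array may not separate their transcripts. The Aph1c probe read 102, 112 and 100 in SSC and 108, 105 and 102 in ESC and was detected on no array. In limma none of Furin, Ncstn and Aph1b had an adjusted p above 3.87e-04 on its brightest probe. The protease gene Adam17 was detected on all arrays and not called (−0.08, limma adjusted p = 0.551).

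Genes of endocytosis and turnover, which control ligand activity and receptor decay, went both ways. Of 14 measured, 7 were higher, 3 lower and 4 not called. Mib1, the ubiquitin ligase that ligands need to signal, was higher by 1.70 ± 0.11, and Neurl1a, the mouse Neuralized ligase, had a difference of −2.07 ± 0.12. The other Neurl1a probe was detected on 0 SSC arrays and was at least 3.28-fold lower. The Deltex ubiquitin ligase gene Dtx1 was higher by 1.60 ± 0.14. Dtx3l (−0.88 ± 0.13) and the ligase gene Nedd4 (−1.07 ± 0.13) were lower. The limma adjusted p of these 5 genes was 3.57e-05 or less. Dtx4, another Deltex gene, was at least 4.75-fold higher on its brightest probe and 2.89-fold on its other, with 0 ESC arrays detecting either. Nrarp, a feedback inhibitor that is itself induced by Notch, read 248, 287 and 241 in SSC and 133, 131 and 144 in ESC. Its difference was 1.46 ± 0.14 (limma adjusted p = 8.72e-07), and it is named here after its values were seen.

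In the nucleus, co-activators were mostly lower and co-repressors mixed. Of 7 co-activators, 4 were lower, 1 higher and 2 not called. The acetyltransferase genes Kat2b (−1.07 ± 0.13), Kat2a (−0.79 ± 0.12) and Ep300 (−0.44 ± 0.14) were lower, with a limma adjusted p of 0.0123 or less, and the call of Ep300 was lost without SSC replicate 3 (−0.32, adjusted p = 0.0585). The other probe of Ep300 gave −0.23 and was not called, and that of Kat2b was detected on 0 SSC arrays and was at least 1.52-fold lower. Maml2, a Mastermind scaffold that holds RBPJ to the receptor domain, was higher by 0.30 ± 0.12 (adjusted p = 0.0339), a call that was lost in 8 of the settings tried.

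Of 11 co-repressors, 6 were higher, 3 lower and 2 not called. Spen was higher by 0.43 ± 0.12 on its brightest probe (limma adjusted p = 0.00712). Its other kept probe, detected on 0 SSC arrays, was at least 1.76-fold lower. Cir1 was not called on its brightest probe (0.29), while its other kept probes gave 0.96 (limma adjusted p = 7.56e-06) and 0.24 (not called). Tle2, a Groucho-family partner of Hes and Hey proteins, was at least 4.66-fold higher on its brightest probe and 3.66-fold on its other, both below detection on all ESC arrays. Its relative Tle1 was higher by 1.64 ± 0.15, and by 1.32 and 0.57 on its other probes. Tle3 was lower (−0.86 ± 0.19), but its other probe gave −0.21 and was not called, and the mean of both was −0.53. L3mbtl3, which is known to bind RBPJ, was higher by 1.21 ± 0.12. Sap30, a subunit of the Sin3 deacetylase complex, had a difference of −3.0 ± 0.12, and Ctbp2, a co-repressor, −1.74 ± 0.13 (−2.10 on its other probe). Apart from Spen, Cir1 and Tle2, the limma adjusted p of these genes on their brightest probes was 0.00100 or less.

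The remaining Hes and Hey family was mostly below detection. Of 8 genes with a probe, Hes2, Hes3, Hes5, Hes7, Hey2 and Helt were not measured and 2 were. Heyl read 145, 144 and 132 in SSC, against 104, 106 and 100 in ESC. It was at least 1.5-fold higher in SSC and was detected on 0 ESC arrays (limma adjusted p = 1.10e-06). Hes6, a relative that antagonises Hes1, was higher by 0.55 ± 0.12 on its brightest probe (limma adjusted p = 0.00111), while its other kept probes gave −0.11 and 0.07 and the mean of all 3 was not called (0.17, adjusted p = 0.157).

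Of the 9 further targets measured, 5 were higher in SSC, 2 lower and 2 not called (Id1 and Ccnd1). Another kept Ccnd1 probe was lower in SSC (−0.36, limma adjusted p = 0.0112), and the last gave 0.07 and was not called. Gdnf, which encodes the growth factor of the spermatogonial stem cell niche and is a gene that Notch represses in Sertoli cells, read 541, 582 and 535 in SSC and 113, 103 and 109 in ESC. It was at least 13.8-fold higher in SSC (limma adjusted p = 3.56e-11, detected on 0 ESC arrays), and its second probe was detected on no array. Cyp26b1, the retinoic acid-degrading enzyme gene that Notch likewise lowers in Sertoli cells, was at least 1.41-fold higher (adjusted p = 5.71e-07), and Sox9, a Sertoli cell factor, at least 7.57-fold (adjusted p = 3.24e-10), with 0 ESC arrays detecting either. Cdkn1a, the cell cycle inhibitor p21, was lower in SSC (−3.55 ± 0.16, adjusted p = 4.27e-10). Its other probes were detected on 1 and 0 SSC arrays, with a difference of −2.94 on the first and at least 3.94-fold lower on the second. Also lower was the transcription factor gene Gata2 (−0.52 ± 0.16, adjusted p = 0.00887), whose call was lost under scaling on array medians (−0.17) and without SSC replicate 1 (−0.40).

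The labels were checked against marker genes. All 10 pluripotency markers were lower in SSC, and their summed normalized intensity was 1811 to 1873 in SSC and 12668 to 13912 in ESC. Nanog, Esrrb, Tdgf1 and Dppa3 were detected on 0 SSC arrays, so they passed the filter through ESC alone and had to differ. Of 15 measured markers of undifferentiated spermatogonia, 12 were higher in SSC and 0 lower, including Zbtb16 (3.05), Gfra1 (2.55) and Nanos2 (3.36). Ret, Nanos3 and Lhx1 were detected on 0 ESC arrays and likewise had to differ. Among all genes measured, 37.9% were higher in SSC and 36.5% lower.

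Markers of testis somatic cells were also detected on the SSC arrays and were mostly higher there, against 37.9% higher among all genes measured. In bulk RNA, more cells of a type and more transcript per cell cannot be told apart. Of 10 measured Sertoli cell markers, which include Gdnf and Sox9, 8 were higher in SSC and 1 was lower. Their summed level was 4828 to 5191 in SSC and 1497 to 1628 in ESC. Most of the ESC sum was Aard, which was not called. Without Aard the sums were 3350 to 3601 in SSC and 250 to 268 in ESC. Amh and Fshr, which define Sertoli cells, were detected on each SSC array but not in ESC. Like Sox9, Gdnf, Gata1 and Gata4, also detected on 0 ESC arrays, they passed the filter through SSC alone and had to differ. Of 12 measured markers of peritubular myoid cells and fibroblasts, 10 were higher and 1 was lower. The list includes Thy1, which is also counted among the markers of undifferentiated spermatogonia. Their sums were 9251 to 10339 in SSC and 3589 to 3851 in ESC. Most of the ESC sum was Acta2, which was not called. Without Acta2 the sums were 6539 to 8117 in SSC and 775 to 859 in ESC. Myh11, Dcn, Lum, Col1a2, Col3a1 and Col6a1 were detected on 0 ESC arrays and Tagln on 0 SSC arrays, so these had to differ. Leydig cell markers were few, with 3 of 4 measured higher and 1 lower, and Star, Hsd3b1, Hsd3b6 and Nr5a1 not measured (sums of 545 to 721 in SSC and 259 to 268 in ESC). Of the higher ones, Cyp17a1 and Hsd17b3 were detected on 0 ESC arrays and had to differ. The part of these cells in the values of the Notch genes, Heyl and Gdnf was not tested.

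Endothelial markers are given because Notch4 and Dll4 are known from vessels. Against 37.9% higher and 36.5% lower among all genes measured, 2 of 8 measured were higher, 4 lower and 2 not called. Their sums were 531 to 567 in SSC and 1631 to 1763 in ESC. Pecam1, which is also known in embryonic stem cells, was detected on 0 SSC arrays and 3 ESC arrays, so it had to differ. Kdr and Tie1 were not measured. Cdh5, a defining endothelial gene, and Emcn were detected on no ESC array and passed the filter through SSC alone, so both had to differ. They were at least 1.99-fold and 1.08-fold higher in SSC. Vwf (−1.75), Egfl7 (−1.59) and Eng (−1.04) were lower in SSC and detected on all arrays. Macrophage and leukocyte markers were higher for 3 of 5 measured and lower for 1, with sums of 205 to 231 in SSC and 1002 to 1074 in ESC, and Ptprc, Adgre1, C1qa and C1qb were not measured. Most of the ESC sum was Laptm5, and without it the sums were 140 to 157 in SSC and 89 to 96 in ESC. Lyz2, C1qc and Fcer1g, the higher ones, were detected on 0 ESC arrays and had to differ. Without Pecam1 the endothelial sums were 507 to 548 in SSC and 946 to 979 in ESC. The part of the endothelial and leukocyte markers in the value of Notch4 was not tested.

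Across the series, 16505 to 17211 probes were detected on the SSC arrays and 15242 to 15613 on the ESC arrays. Over the kept probes, arrays correlated at 0.989 to 0.993 within a group and at 0.784 to 0.795 between groups. The number of arrays limits the precision of each value.

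Directions of the 6 called genes held in each setting tried, as the plot by setting shows, and sizes did not.

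**Figure D4:**
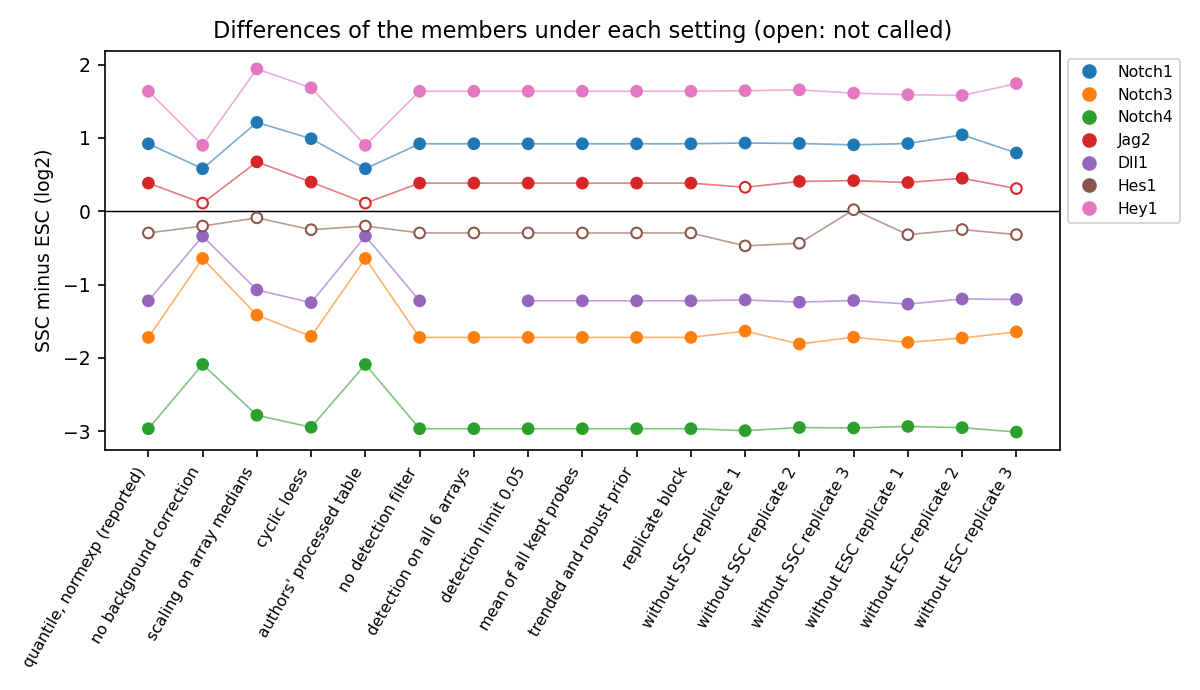
Log2 difference SSC minus ESC of the 7 measured Notch genes under each setting, filled where the adjusted p was under 0.05. The 6 called genes keep their sign throughout, Hes1 crosses 0 without SSC replicate 3, Jag2 is open in 4 settings, and Dll1 has no value where detection on all 6 arrays was required.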

How the data were processed

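Total RNA of 3 SSC and 3 ESC samples was labelled with biotin and hybridised to 1-colour Illumina bead arrays. The deposited intensity values are 1 mean brightness per probe and array, not normalized, with the background still in them, and a deposited detection p-value stands beside each. GenomeStudio is listed, with neither version nor role, per the submitters' processing notes. Another deposited table has intensity values normalized by the authors in a way not given in the sources used here: its columns have medians of 107, and it served as an alternative. Background was corrected by normexp from the detection p-values with an offset of 16, followed by quantile normalization, log2, lmFit and eBayes (limma 3.58.1, R 4.3.3), with no covariate and with Benjamini-Hochberg adjustment across the 17435 probes that passed the detection filter. A gene is given by its brightest kept probe, and the other kept probes of a named pathway gene are given beside it. Of the 34885 probes with 1 symbol in the platform annotation, 34807 matched RefSeq by gene identifier and 0 symbols changed. 18 probes had several symbols and 10378 are unnamed here.

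The fit was tested on simulated data. The genes and lists were chosen with earlier results of these data known. Pathway genes were named by rule: up to 3 called genes per role and direction by size, plus Gdnf and Cyp26b1. Uncalled and undetected genes, Nrarp and Spen were named after their values were seen. Alternatives were no background correction, median scaling, cyclic loess, the processed table, other detection filters, the mean of a gene's probes, a trended and robust prior, the replicate number as a block, and leaving out each sample. Samples with the same number did not deviate together (correlations of −0.14, −0.07 and 0.03).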

Additional observations from a re-analysis of the deposited data

How the results depend on the processing

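Under the alternatives the 7460 calls over all genes came to 7043 to 7811, except 5579 where detection on all 6 arrays was required, which tests fewer genes. The calls among the Notch genes were 5 or 6 throughout, and leaving out 1 sample gave 7043 to 7317 calls over all genes, 5 to 6 among the Notch genes and 37 to 40 among the other pathway genes. Leaving out 1 sample took the difference of Hes1 to between −0.47 (without SSC replicate 1) and 0.021 (without SSC replicate 3). This was the only change of sign among the 7 Notch genes and the 30 named pathway genes. Background treatment moved sizes most: without correction, 5 of the 7 Notch genes and 20 of the 30 named pathway genes had differences more than 1.5 times smaller, and so they did from the authors' processed table. Over all genes, called differences of at least 2-fold numbered 3331, against 1406 without correction, and 4 against 1 among the Notch genes. The bounds given as folds hold only under the correction used here. Scaling on array medians moved the median of all genes to 0.19, so that differences read under that scaling stand against a shifted zero, and it left the signs of the 7 Notch genes as they were. With the replicate block, whose numbers pair no samples, there were 7348 calls over all genes, 6 among the Notch genes and 40 among the other pathway genes, and of the named genes the call of Maml2 was lost (0.30, adjusted p = 0.0560). Genes near background, Notch2, Jag1 and Rbpj above all, are limited by signal over background.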
